A study of Mus musculus with 18 samples.

Results

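The comparison described here set 3 carotid libraries collected 14 days after wire injury against 4 carotid libraries labelled as day 0 and pre-injury, which makes 7 of the 18 libraries of the series. Of the 35655 genes in the deposited table of counts, 10312 held enough counts to be tested, and every one of them entered the comparison. All mice carried the genotype WT on the strain C57/BL6. In the study's methods the injury was made in the left carotid of male mice at 11 weeks of age, which ate normal chow, and the right carotid served as the control. Vessels with thrombosis had been discarded. The labels do not say whether the day 0 vessels were the uninjured side of operated animals. Each library came from up to 70 frozen sections of a carotid, from which the tissue inside the outer elastic lamina was cut by laser, and the mouse numbers in the labels differ between all 7 libraries. Mouse numbers of 3 day 0 libraries also occur on libraries of day 21, which entered the fit of all 18 libraries with day as its only term. The study also calls these samples pooled, so the p-values measure the spread between the libraries, whatever their source. RNA was read by MACE, a method that sequences the 3′ ends of transcripts and counts each molecule by a molecular identifier.

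A carotid wall consists mainly of smooth muscle cells between sheets of elastin, with an endothelium on the inside and fibroblasts on the outside. After an injury that opens the inner elastic sheet, smooth muscle cells can lose their contractile proteins, divide, move inward and deposit collagen, elastin and proteoglycans, and this new layer is called the neointima. Macrophages and other white blood cells enter the wall during the same weeks. Levels are given below as CPM, the counts of a gene scaled to a common library total, and differences as log2 fold changes of day 14 over day 0 from edgeR's quasi-likelihood test. The adjusted p is that test's p after Benjamini-Hochberg adjustment over the 10312 genes, and a gene was called when it lay under 0.05. SE stands for the size of the log2 fold change divided by the square root of the test's F statistic.

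The 3 day 14 libraries held 678209, 555284 and 789510 counts, and the 4 day 0 libraries held between 689455 and 869924. Between 12827 and 13361 genes had a count in a day 14 library, against 10792 to 12154 in a day 0 library. Mitochondrial transcripts made up 3.21%, 2.53% and 1.77% of the counts on day 14 and 3.06% to 4.20% on day 0. The day 14 libraries stood at unequal distances from day 0. The root mean square of the log2 ratio to the day 0 mean was 0.859 in replicate 1, 1.22 in replicate 2 and 1.02 in replicate 3. A day 0 library set against the other 3 in the same way gave 1.11, 0.804, 0.956 and 0.793. Replicates 1 and 3 of day 14 lay within that range, and replicate 2 lay above it. Over the 3538 genes with a mean of at least 50 CPM, where counting error is smaller, the day 14 values were 0.683, 1.07 and 0.885 and the day 0 values 0.719, 0.508, 0.590 and 0.494, so that replicate 1 of day 14 was above 3 of the 4 day 0 libraries. Replicate 2 was thus the farthest of the 3 from day 0 and replicate 1 the nearest by either measure.

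On day 14, 641 of the 10312 genes tested were called, which is 6.22%. Of these, 495 genes were higher than on day 0 (4.80%) and 146 were lower (1.42%). The split depended on the fit. With only the libraries of days 0 and 14, which leaves out day 21, 461 genes were called, 248 higher and 213 lower, and 373 of them were among the 641 (58.2%). By limma-voom with a weight for each library, which is meant wherever limma-voom is named here, 898 were called, 491 higher and 407 lower. The median log2 fold change, taken without a floor, was 3.55 for the genes that rose and -1.51 for those that fell. Of the 495, 390 changed over 4-fold, and of the 146, 32 did. Among the genes that rose, 101 had no count in any day 0 library. Such genes could be tested only because of counts on later days, and a rise from few counts must be large to be called. The sizes of the rises and falls therefore cannot be compared. Whether or not a gene was called, all 3 day 14 libraries lay above all 4 day 0 libraries for 1106 genes (10.7%) and below all 4 for 700 (6.79%). Of the called genes, 442 of the 495 and 144 of the 146 separated the groups in this way, which calling from these same libraries favours.

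The size of the change differed between the 3 libraries in the same order for both directions. For the 495 genes that rose, the median log2 ratio to the day 0 mean was 1.73 in replicate 1, 2.93 in replicate 2 and 2.29 in replicate 3. For the 146 that fell it was -0.99, -1.92 and -1.70. Replicate 2 held the highest value of the 3 for 359 of the genes that rose, and replicate 1 held the highest value for 117 of the genes that fell. Replicate 1 was thus the closest to day 0. It lay beyond every day 0 library for 451 of the 495 and 144 of the 146. These genes were called with that library included, so the counts do not test whether it changed. The count of called genes rested on replicate 2 more than on the others. Without it 233 genes were called, 214 higher and 19 lower, and all 233 were among the 641. Without replicate 3 there were 429 calls, 379 higher and 50 lower, and without replicate 1 there were 762.

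**Figure D1:**
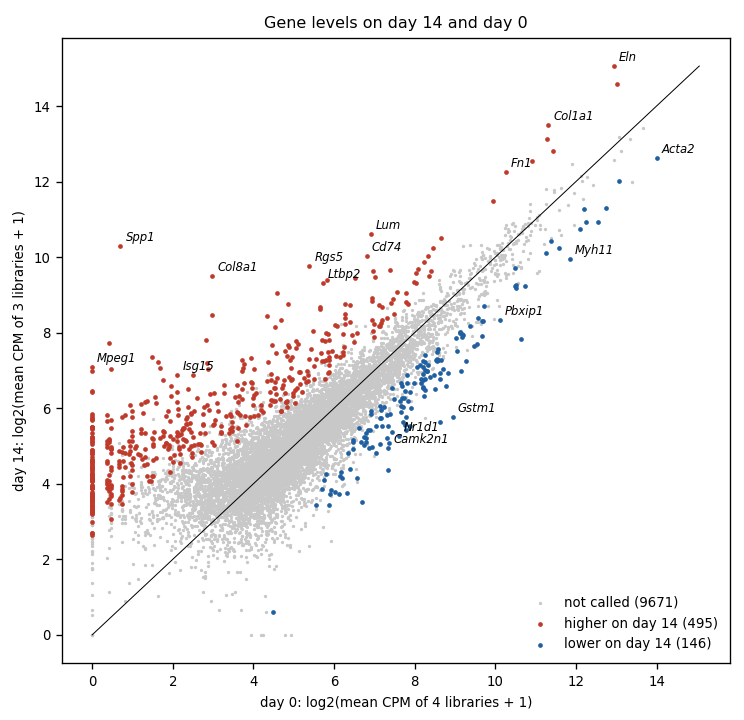
Mean level of each of the 10312 tested genes on day 0 (x axis, 4 libraries) and day 14 (y axis, 3 libraries), both as log2(CPM + 1), with the 495 genes called higher in red, the 146 called lower in blue and the 9671 others in grey. Red points reach far above the diagonal at low day 0 levels, where 101 of them had no count on day 0, while blue points stay closer to it and include highly expressed genes such as Acta2 and Myh11.

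Direct tests placed day 14 beside its neighbours in time. Between day 14 and day 7, 171 genes were called (1.66%), 137 of them higher on day 14 and 34 lower. Among the genes described here these were Acta2, Myh11, Cnn1, Mylk, Rgs5, Atp2a2, Smarcd3, Col3a1, Ltbp2 and Cd248, which were higher on day 14, and Fbln2 and Hbb-bs, which were lower. That count fell to 26 without replicate 1 of day 14 and to 81 without replicate 3. Between day 21 and day 14, edgeR called 0 genes (0%), with a smallest adjusted p of 0.555, while 421 genes had an unadjusted p under 0.05. DESeq2 called 13 genes there and limma-voom called 9.

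Genes were then described in 38 lists by their role, of which 29 had at least 10 tested members. The shares below are read against 4.80% higher and 1.42% lower over all genes tested, and the median log2 fold changes against 0.05.

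**Figure D2:**
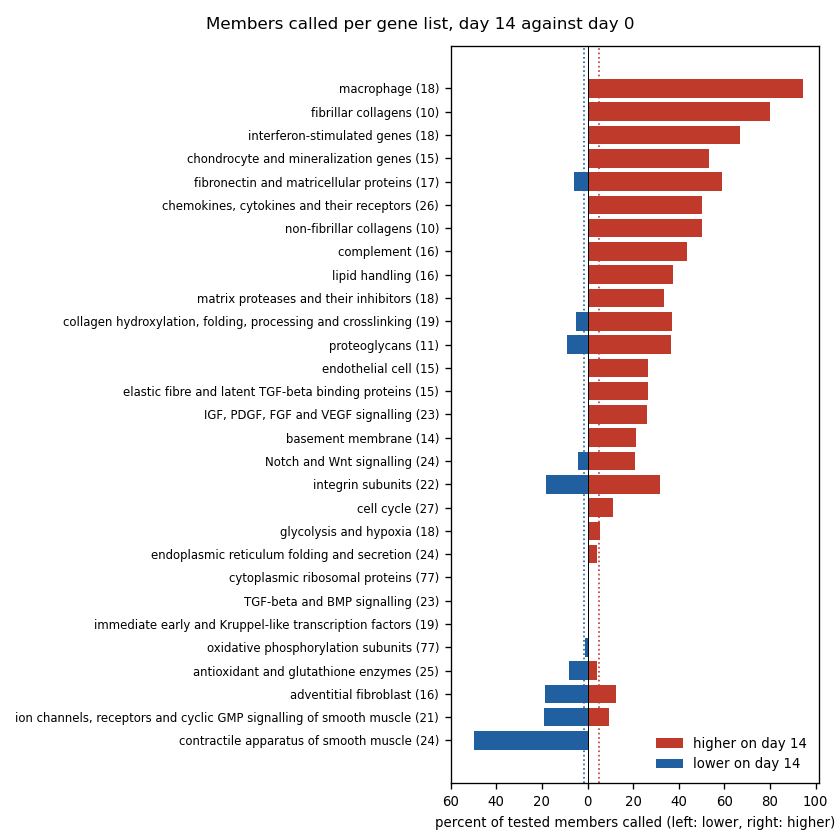
Percent of tested members called higher (red, to the right) or lower (blue, to the left) on day 14 than on day 0, for the 29 lists with at least 10 tested members, whose number stands in parentheses. The dotted lines mark 4.80% higher and 1.42% lower over all genes tested. Macrophage genes and fibrillar collagens have the longest bars to the right, and the contractile genes of smooth muscle the longest to the left.

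Contractile genes of smooth muscle were lower on day 14. Of 24 tested members, 12 fell and 0 rose, with a median log2 fold change of -1.39. Since the libraries are bulk samples, fewer smooth muscle cells and less of this RNA in each cell cannot be told apart. Acta2, smooth muscle actin, measured 16631, 14632, 16217 and 17968 CPM on day 0 and 10672, 3874 and 4227 CPM on day 14. All 3 libraries were below all 4, but replicate 1 stood well above the other 2, and the difference had a log2 fold change -1.39, SE 0.37, adjusted p = 0.0236. Myh11, the smooth muscle myosin heavy chain, went from 4181, 3449, 3464 and 3632 CPM to 2089, 521 and 377 CPM (log2 fold change -1.89, SE 0.55, adjusted p = 0.0381). Its call was lost without replicate 2 or 3 of day 14 or replicate 1, 2, 3 or 4 of day 0, at an adjusted p of up to 0.23, and DESeq2 did not make it (adjusted p = 0.0603). The call of Acta2 was lost without replicate 2 or 3 of day 14 or replicate 4 of day 0, at an adjusted p of up to 0.181.

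Replicate 1 was also the highest of the 3 day 14 libraries in the other members, while the lowest was replicate 2 for 18 of the 24 and replicate 3 for 6. Mylk, the kinase that switches on smooth muscle myosin, measured 1723, 1579, 2091 and 1457 CPM on day 0 and 1001, 348 and 457 CPM on day 14 (log2 fold change -1.51, SE 0.32, adjusted p = 0.00466, and 0.0565 without replicate 2 of day 14). Pdlim7, a protein of the actin cytoskeleton, fell from 469, 613, 550.0 and 496 CPM to 243, 148 and 153 CPM, with the smallest adjusted p of the list at 0.000695. Des, the intermediate filament desmin, fell from 345, 348, 474 and 276 CPM to 149, 97.1 and 24.8 CPM (adjusted p = 0.00543). Pdlim7 and Des kept their calls when any single library was left out. The other called members were Flna, Tpm1, Tpm2, Myl9, Ppp1r14a, Tns1 and Smtn, with log2 fold changes between -2.17 and -1.13. Tagln, an actin-binding protein used as a smooth muscle marker, measured 11661, 9676, 11648 and 10148 CPM and then 7553, 2026 and 2675 CPM without passing the test (adjusted p = 0.0967). Cnn1, calponin, measured 2397, 2073, 2058 and 2179.7 CPM and 1518, 450.0 and 411 CPM and also missed the threshold (adjusted p = 0.0553). In both, every day 14 library was below every day 0 library and replicate 1 lay between the rest and day 0.

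Summed over the list, contractile genes made up 72078, 65023, 70814 and 66366 CPM on day 0 and 45019, 15214 and 17659.8 CPM on day 14. Replicate 1 was the highest of the 3 day 14 libraries for all 24 tested members. Without replicate 2, 2 of the 12 members kept their call. A CArG box, the sequence to which serum response factor binds, was sought on both strands of the 250 bases before each annotated transcript start. Only exact matches to CCWWWWWWGG were counted, where W is A or T. It was found for 304 of 21738 genes (1.40%), for 2 of the 24 contractile genes (8.33%, Tagln and Vcl) and for 0 of the 12 that fell. Boxes with a mismatch, farther upstream or inside the gene were not searched, so the 0 does not show that these genes lack a box.

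Genes for how smooth muscle responds to signals moved in both directions. Of 21 tested members of a list of ion channels, receptors and cyclic GMP signalling, 4 fell and 2 rose (median -0.89). Atp2a2, the calcium pump that refills the sarcoplasmic reticulum, measured 485, 493, 546 and 560.3 CPM on day 0 and 309, 159 and 222 CPM on day 14 (log2 fold change -1.18, SE 0.26, adjusted p = 0.00559, and 0.0719 without replicate 2 of day 14). The other 3 that fell act on cyclic GMP, the messenger of nitric oxide and natriuretic peptides. Npr1, a natriuretic peptide receptor that makes it, went from 341, 356, 298 and 270.3 to 176, 67.1 and 137 CPM, Gucy1b1, a subunit of the nitric oxide receptor, from 124, 92, 93.9 and 252 to 56, 17.6 and 23.5 CPM, and Pde5a, which degrades cyclic GMP, from 83.4, 127, 134 and 110.2 to 59.2, 33.5 and 32.6 CPM. Without replicate 2 of day 14 none of these 3 was called, with adjusted p of 0.164, 0.141 and 0.124. The last pair were also lost without replicate 3, and Gucy1b1 without replicate 4 of day 0.

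Rgs5, a regulator of G protein signalling found in pericytes and arterial smooth muscle, rose from 50.6, 46.6, 38.8 and 27.6 CPM to 609, 215 and 1790.1 CPM (log2 fold change 4.41, SE 0.70, adjusted p = 0.000241). Its day 14 libraries were spread widely, with replicate 3 the highest and replicate 2 the lowest, and all lay above day 0. The call held with any single library left out. Npr3, the receptor that clears natriuretic peptides, had 1 count over all day 0 libraries and measured 24, 7.06 and 7.83 CPM on day 14 (adjusted p = 0.0363), a call lost without replicate 1, 2 or 3 of day 14 or replicate 1, 2 or 3 of day 0, at an adjusted p of up to 0.131.

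The 8 genes with the smallest p among those that fell were Pbxip1, Gstm1, Timm22, Pdlim7, Smarcd3, Nr1d1, Camk2n1 and Tgm2, chosen with all 3 libraries below day 0. Gstm1, a glutathione transferase, measured 368, 687, 197 and 720.4 CPM and 97.6, 40.6 and 23.5 CPM. It varied among the day 0 libraries themselves, and by the rule of choice the day 14 libraries were all below the lowest of them (log2 fold change -3.20, SE 0.56, adjusted p = 0.000674). Pbxip1, which binds PBX homeodomain proteins, measured 1272, 1198, 1009 and 945 CPM and then 470.3, 214 and 283 CPM. Smarcd3, a subunit of SWI/SNF chromatin remodelling complexes, measured 314, 369, 295 and 281 CPM and then 150.4, 93.5 and 132 CPM. Timm22, part of the import machinery of the inner mitochondrial membrane, went from 989, 1033, 659 and 573 to 197, 157 and 369 CPM. These 3 had log2 fold changes of -1.78, -1.33 and -1.75, with adjusted p of 0.000435, 0.00181 and 0.000685.

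Nr1d1, a nuclear receptor of the circadian clock, went from 150.4, 233, 171 and 218 CPM to 49.6, 44.1 and 19.6 CPM (log2 fold change -2.36, adjusted p = 0.00181). The hours at which vessels were taken are not given in the sources used here. Camk2n1, an inhibitor of calcium/calmodulin-dependent kinase II, measured 180.2, 152, 129.7 and 184 CPM and 64, 15.9 and 9.13 CPM (log2 fold change -2.45). Tgm2, a transglutaminase that crosslinks proteins, fell to 414, 316 and 223 CPM from 721, 806, 912 and 852 CPM (log2 fold change -1.37). Sost, which codes for the Wnt inhibitor sclerostin, fell from 2262, 1192, 1341 and 1538 CPM to 397, 65.3 and 219 CPM (log2 fold change -2.80, SE 0.67, adjusted p = 0.0105, and 0.0823 without replicate 2 of day 14).

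Fibrillar collagens rose. Of 10 tested genes 8 were higher and 0 lower, with a median log2 fold change of 1.79. Col1a1, the main chain of type I collagen, measured 3953, 2031, 2143 and 2071 CPM on day 0 and 9348, 15424 and 10198 CPM on day 14 (log2 fold change 2.19, SE 0.28, adjusted p = 1.99e-05). Col3a1, type III collagen, measured 2434, 1829, 1528 and 1938 CPM and 5947, 7237 and 4867 CPM (log2 fold change 1.64, SE 0.21, adjusted p = 1.99e-05). In both, replicate 2 was the highest, and the lowest day 14 library lay well above the highest of day 0. Col1a2, Col5a1 and Col5a2, further chains of type I and type V collagen, rose by log2 fold changes of 1.85, 1.55 and 1.63. These 5 kept their calls without any single library. The remaining 3 calls, Col11a1, Col5a3 and Col2a1, were lost without replicate 2, at adjusted p of 0.531, 0.417 and 0.144. Col5a3 also lost its call without replicate 1, 2 or 3 of day 0, and Col2a1 without any of the 4 libraries of that day. Replicate 1 of day 0 held more Col1a1 than the other 3 libraries of that day and had the highest summed level of fibrillar collagens of the 4, at 10366 CPM against 6392 to 6786 CPM.

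Of 10 non-fibrillar collagens 5 rose and 0 fell (median 1.09). Col8a1, a short-chain collagen made by injured vessels, measured 0, 16.7, 1.49 and 9.19 CPM on day 0 and 421, 1149 and 611 CPM on day 14 (adjusted p = 2.25e-07). Day 0 held 22 counts in all, so the level there is poorly known. Col12a1, which lies on the surface of collagen fibrils, had 5 counts over day 0 and then 33.6, 392 and 61.3 CPM, far higher in replicate 2 than in the other 2 libraries (edgeR adjusted p = 0.000272, limma-voom adjusted p = 0.0684). Col6a3, Col8a2 and Col16a1 were also called, and none of these 3 was called without replicate 2, at adjusted p of 0.0573, 0.205 and 0.213. Col16a1 also lost its call without replicate 3 of day 14 or replicate 2, 3 or 4 of day 0.

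Of 14 basement membrane genes 3 rose and 0 fell (median 0.31). Lamb1, a laminin chain, rose from 16.4, 4.78, 0 and 5.25 CPM to 51.2, 132 and 62.6 CPM (log2 fold change 3.61, SE 0.57, adjusted p = 0.000225), and Nid1, nidogen, which links laminin to collagen, from 17.9, 16.7, 32.8 and 47.2 CPM to 72, 155 and 112 CPM (log2 fold change 1.97, adjusted p = 0.00257). Nid2 had the other call, lost without replicate 2 of day 14 or replicate 1, 2 or 3 of day 0, at an adjusted p of up to 0.36.

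Among 19 genes for hydroxylating, folding, processing and crosslinking collagen, 7 rose and 1 fell (median 0.62). Lox, the enzyme that crosslinks collagen and elastin, rose from 429, 329.9, 408 and 436 CPM to 1409, 1196 and 1786 CPM (log2 fold change 1.87, SE 0.28, adjusted p = 0.000166), with the 3 libraries close to each other. P4ha3, a collagen prolyl hydroxylase subunit, had 2 counts on day 0 and measured 30.4, 75.9 and 53.5 CPM on day 14, a ratio of 77.3 with an exact 95% counting interval of 20.9 to 647 (adjusted p = 0.000176). Intervals of this kind cover counting error only. Bmp1, the protease that removes the C-terminal ends of procollagen, rose to 354, 386 and 479 CPM from 191, 122, 179 and 89.2 CPM (adjusted p = 0.00141). Without replicate 2, 3 of the 8 called members were still called. The member that fell was Pcolce2, an enhancer of procollagen processing, with a call lost without replicate 2 or 3 of day 14 or replicate 2, 3 or 4 of day 0, at an adjusted p of up to 0.28.

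Of 15 elastic fibre genes tested, 4 rose and 0 fell, and the median was 0.24. Eln, the elastin gene at chr5:134731445-134776322 on the minus strand of GRCm39, measured 9097, 7185, 7718 and 7294 CPM on day 0 and 46447, 20298 and 35622 CPM on day 14 (log2 fold change 2.12, SE 0.48, adjusted p = 0.00643). The order of the libraries differed from that of the collagens, with replicate 1 the highest and replicate 2 the lowest. Ltbp2, a latent TGF-beta binding protein of elastic fibres, had the smallest p of all 10312 genes. It measured 52.1, 56.2, 59.6 and 38.1 CPM on day 0 and 489, 778 and 647 CPM on day 14 (adjusted p = 9.95e-09). Fbln2, fibulin-2, rose from 86.4, 94.4, 85 and 68.2 CPM to 449, 401 and 429 CPM with little spread (log2 fold change 2.35, SE 0.25, adjusted p = 2.09e-06). Fbn1, fibrillin-1, was the other gene that rose, to 622, 796 and 539 CPM from 351, 251, 233 and 181 CPM (adjusted p = 0.00142). All 4 kept their calls with any single library left out.

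Genes for fibronectin and the matricellular proteins, which sit in the matrix and act on cells, were called in 11 of 17 cases, 10 higher and 1 lower (median 2.00). Fn1, fibronectin, measured 1565, 1066, 1106 and 1181 CPM and 3983, 6039 and 4740.2 CPM (log2 fold change 2.00, SE 0.22, adjusted p = 2.09e-06). Spp1, osteopontin, had 2 counts over all day 0 libraries and measured 397, 3125 and 232 CPM on day 14. The ratio was 1649.8, with a counting interval of 456 to 13632, and replicate 2 was far above the other 2 (edgeR adjusted p = 2.09e-06, limma-voom adjusted p = 0.137). Tnc, tenascin-C, rose from 44.7, 29.9, 1.49 and 36.7 CPM to 278, 692 and 326 CPM (log2 fold change 3.92, SE 0.57, adjusted p = 9.47e-05). Cthrc1, a protein of activated fibroblasts and injured arteries, rose from 0, 7.17, 5.96 and 0 CPM to 36.8, 95.3 and 78.3 CPM (adjusted p = 0.00141). Postn, periostin, did not differ by the test, at 1215, 1381, 997 and 1438 CPM and 1540.4, 1461 and 752 CPM (log2 fold change -0.01, SE 0.29), and its sign depended on the processing. Sparcl1 was the member that fell, from 470.5, 398, 335 and 610.2 CPM to 269, 58.2 and 35.2 CPM (adjusted p = 0.0197, and up to 0.15 without replicate 2 or 3 of day 14 or replicate 4 of day 0).

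Of 11 proteoglycans 4 rose and 1 fell (median 0.98). Lum, lumican, which spaces collagen fibrils, rose from 182, 56.2, 107 and 133 CPM to 904, 1719 and 2076 CPM (log2 fold change 3.72, SE 0.47, adjusted p = 1.77e-05). Acan, aggrecan, a proteoglycan of cartilage that injured arteries also make, rose from 26.8, 17.9, 1.49 and 2.62 CPM to 44.8, 270.0 and 150.0 CPM (log2 fold change 3.64, SE 0.67, adjusted p = 0.00132). Vcan, versican, measured 65.5, 72.9, 44.7 and 77.4 CPM and 142, 196 and 158 CPM (adjusted p = 0.00865, and 0.0845 without replicate 2 of day 14). Ogn, osteoglycin, was the proteoglycan that fell, from 752, 876, 698 and 917 CPM to 533, 217 and 197 CPM (adjusted p = 0.00697, and up to 0.0761 without replicate 2 or 3 of day 14). Fmod, fibromodulin, which binds collagen fibrils, had the other call at 87.8, 59.8, 76 and 81.4 CPM and 78.4, 642 and 175 CPM, with replicate 1 of day 14 inside the day 0 range (adjusted p = 0.0311, and up to 0.72 without replicate 2 of day 14 or replicate 1, 2, 3 or 4 of day 0). Without replicate 2 of day 14, 2 of the 5 calls were kept, Lum and Acan.

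Genes known from cartilage and mineralization were higher in 8 of 15 cases and lower in 0. The median log2 fold change was 3.64, or 2.81 with the genes that had no day 0 count set to 3 counts over that group. Col2a1, the collagen of cartilage, had no count on day 0 and measured 22.4, 259 and 92.6 CPM on day 14 (adjusted p = 0.0284). Col10a1, a collagen of hypertrophic cartilage, also had none and then measured 8.0, 148 and 7.83 CPM, most of it in replicate 2 (adjusted p = 0.00518). Runx2, a regulator of bone formation, had 1 count on day 0 and measured 6.40, 22.9 and 15.7 CPM on day 14 (adjusted p = 0.0284). Leaving out replicate 2 of day 14 ended these 3 calls, at 0.144, 0.134 and 0.148. The call of Runx2 was lost without replicate 2 or 3 of day 14 or replicate 1, 3 or 4 of day 0, at an adjusted p of up to 0.148. Mgp, matrix Gla protein, which inhibits calcification, rose from 8427, 8834, 7718 and 8064 CPM to 26764, 18998 and 27262 CPM, with replicate 2 the lowest (log2 fold change 1.56, adjusted p = 0.0105). Without replicate 2, 3 of the 8 members kept their call, namely Spp1, Acan and Mgp. Sox9, which controls cartilage genes, measured 29.8, 12, 5.96 and 10.5 CPM and 12.8, 63.5 and 61.3 CPM, overlapped with day 0 and was not called (adjusted p = 0.108).

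Of 18 proteases that cut matrix and their inhibitors, 6 rose and 0 fell (median 1.46). Timp1, an inhibitor of metalloproteinases, rose from 52.1, 39.4, 49.2 and 81.4 CPM to 286, 1278 and 458 CPM (log2 fold change 3.60, SE 0.47, adjusted p = 1.99e-05). Mmp2, gelatinase A, rose from 267, 161, 106 and 138 CPM to 737, 863 and 843 CPM with little spread (log2 fold change 2.28, SE 0.30, adjusted p = 2.00e-05). Ctss, cathepsin S, an elastin-degrading protease of macrophages, measured 1.49, 8.37, 16.4 and 1.31 CPM and then 168, 563 and 322 CPM (adjusted p = 2.11e-06). Ctsk, Mmp14 and Mmp13 had the other calls, and Mmp14 and Mmp13 lost theirs without replicate 2 (0.146 and 0.238), as Mmp13 did without any 1 library of day 0.

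**Figure D3:**
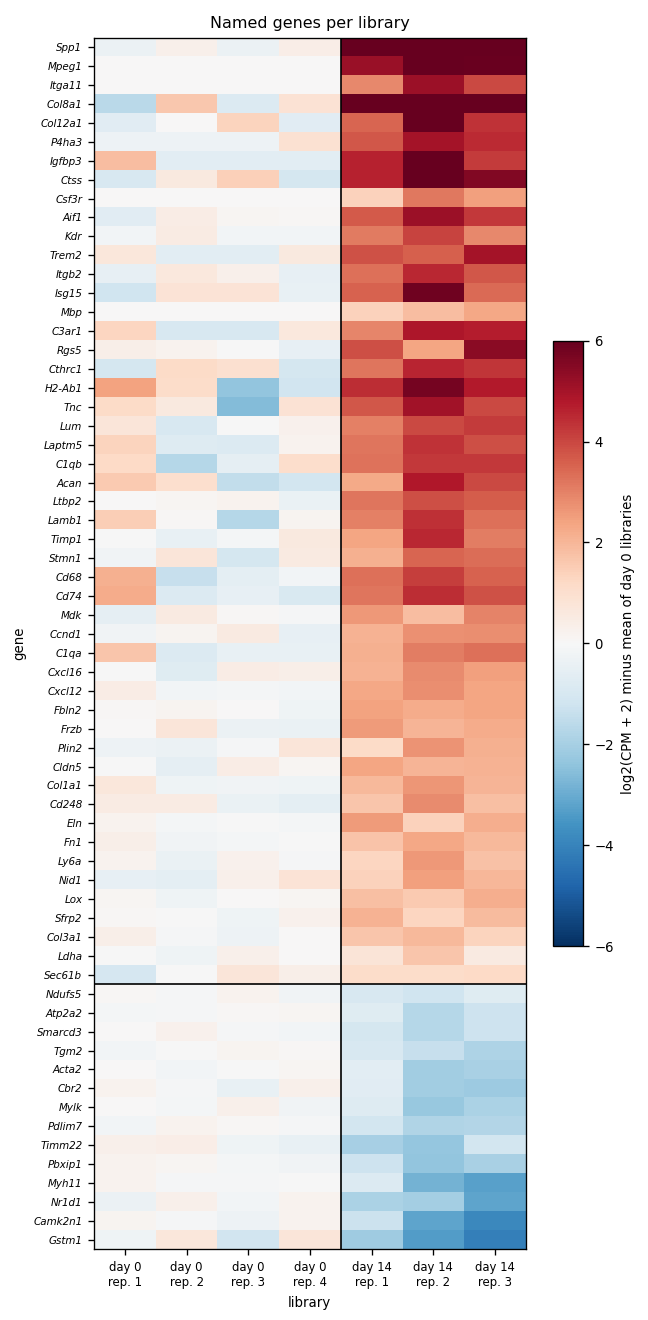
Log2(CPM + 2) minus the mean of the 4 day 0 libraries, by library (columns), for 64 named genes that were called with all day 14 libraries beyond all day 0 libraries, 50 higher and 14 lower (rows, ordered by log2 fold change, colour limits at 6 either way). Among the genes that rose, replicate 2 is the darkest in most rows except Rgs5, Trem2, Eln and some others, and among those that fell, replicate 1 is the palest in most.

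None of the 23 tested genes of TGF-beta and BMP signalling was called by edgeR (median -0.21). Tgfb1 measured 49.1, 15.5, 14.9 and 17.1 CPM and 16, 28.2 and 23.5 CPM and changed sign between settings. At an unadjusted p under 0.05 there were 3 members, and DESeq2 and limma-voom each called 0.

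Of 23 genes of IGF, PDGF, FGF and VEGF signalling 6 rose and 0 fell (median 0.34). Mdk, the growth factor midkine, rose from 8.93, 21.5, 14.9 and 13.1 CPM to 94.4, 56.5 and 123 CPM (log2 fold change 2.62, SE 0.49, adjusted p = 0.00156). Igfbp3, an IGF binding protein, had 6.0 counts on day 0, all in replicate 1, and measured 73.6, 268 and 53.5 CPM on day 14 (edgeR adjusted p = 0.00256, limma-voom adjusted p = 0.0769). Igfbp2, another, rose to 477, 233 and 154 CPM from 93.8, 28.7, 83.5 and 59.1 CPM (adjusted p = 0.00284). Angpt2, Ptn and Pdgfc had the other calls. Angpt2, an angiopoietin, measured 70.0, 39.4, 38.8 and 30.2 CPM and 114, 86.5 and 127 CPM (adjusted p = 0.0275, and up to 0.149 without replicate 1, 2 or 3 of day 14 or replicate 2, 3 or 4 of day 0). Ptn, the growth factor pleiotrophin, measured 1.49, 2.39, 0 and 0 CPM and 0, 40.6 and 119 CPM, with no count in replicate 1 of day 14 (adjusted p = 0.0104, and 0.13 without replicate 3 of day 14). Pdgfc, a PDGF ligand, measured 31.3, 37.1, 29.8 and 28.9 CPM and 67.2, 75.9 and 63.9 CPM (adjusted p = 0.0447), a call lost without any 1 of the 7 libraries, at an adjusted p of up to 0.212. Without replicate 3 of day 14, 3 of the 6 calls were kept. Pdgfra, a PDGF receptor of fibroblasts, measured 41.7, 33.5, 14.9 and 19.7 CPM and 48, 52.9 and 50.9 CPM. Every day 14 library was above day 0, but the test was not passed (adjusted p = 0.432).

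Of 24 genes of Notch and Wnt signalling 5 rose and 1 fell, with a median of 0.05. Sfrp2, Frzb and Sfrp4 code for secreted proteins that bind Wnt ligands. Sfrp2 rose from 368, 339.5, 288 and 415 CPM to 1491, 851 and 1306 CPM (log2 fold change 1.79, SE 0.33, adjusted p = 0.00142), and Frzb from 73, 122, 55.1 and 53.8 CPM to 438, 296 and 344 CPM (log2 fold change 2.24, adjusted p = 0.00236). Sfrp4 rose from 47.6, 37.1, 53.7 and 66.9 CPM to 222, 157 and 288 CPM (log2 fold change 2.12). Replicate 2 was the lowest of the 3 in each of these genes, and every day 14 library was above day 0. Dll4, a Notch ligand of endothelium and macrophages, had no count on day 0 and measured 14.4, 33.5 and 13 CPM on day 14 (adjusted p = 0.00449). Sost, described above, was the member that fell.

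Integrin subunits moved in both directions, with 7 of 22 higher and 4 lower (median 1.04). Itgb2, the common beta chain of white blood cell integrins, had 3 counts on day 0 and measured 25.6, 61.8 and 35.2 CPM on day 14, a ratio of 39 with a counting interval of 12.9 to 193 (adjusted p = 0.000433). Itgam and Itgax had none on day 0 and measured 19.2, 22.9 and 18.3 CPM and 6.40, 45.9 and 10.4 CPM. Itga11, a collagen receptor of fibroblasts, had none either and reached 12.8, 67.1 and 28.7 CPM, at least 34-fold higher than a floor of 3 counts over the day 0 libraries (adjusted p = 0.00141). Those that fell were Itga1, Itga3, Itga7 and Itgb3. Itga1, a collagen and laminin receptor of smooth muscle, went from 205, 169.8, 243 and 238 CPM to 89.6, 74.1 and 95.2 CPM (adjusted p = 0.00659, and 0.0656 without replicate 2 of day 14). Without replicate 2 of day 14, 4 of the 11 integrin calls were kept. None of the 4 that fell was called then, nor were Itga2, Itgal and Itgb7, at adjusted p of 0.122, 0.319 and 0.0624. Itga2 was also lost without replicate 1 of day 14 or any 1 library of day 0, Itgal without replicate 2, 3 or 4 of day 0, and Itgb7 without replicate 3 of day 14.

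Macrophage genes were the list with the largest share of calls. Of 18 tested members 17 rose and 0 fell, with a median log2 fold change of 3.46. Their summed level was 776, 195, 244 and 387 CPM on day 0 and 1702, 3872 and 3467 CPM on day 14. Replicate 1 of day 0 was the highest of that day and replicate 1 of day 14 the lowest of the 3, and the groups did not overlap. Mpeg1, a pore-forming protein of macrophages, had no count on day 0 and measured 70.4, 214 and 121 CPM on day 14, at least 129-fold above the floor (adjusted p = 3.79e-07). Aif1, which codes for the macrophage protein IBA1, measured 0, 2.39, 1.49 and 1.31 CPM and then 38.4, 109 and 57.4 CPM (log2 fold change 5.46, SE 0.56, adjusted p = 1.25e-06). Laptm5, a lysosomal protein of white blood cells, rose from 53.6, 10.8, 10.4 and 23.6 CPM to 203, 441 and 317 CPM (log2 fold change 3.71). Cd68, a lysosomal marker of macrophages, rose from 20.8, 0, 1.49 and 2.62 CPM to 49.6, 91.8 and 58.7 CPM (log2 fold change 3.44, adjusted p = 0.00181). Without replicate 2 of day 14, 15 of the 17 kept their calls, and the same 15 did so whichever single library was left out. The calls of Adgre1 and Mrc1 were lost without replicate 2, and Mrc1 lost its call without any 1 of the 7 libraries. The tested member not called was Gpnmb, a glycoprotein of lipid-laden macrophages, at 149, 20.3, 11.9 and 35.4 CPM and 28.8, 22.9 and 11.7 CPM. Cd163, the haemoglobin scavenger receptor, was the 1 of 19 listed genes with too few counts to be tested, with 41 counts on day 0 and 4 on day 14, or 11.9, 16.7, 16.4 and 10.5 CPM and 0, 1.76 and 3.91 CPM.

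Of 8 genes of MHC class II and dendritic cells, 7 rose and 0 fell (median 3.16). H2-Ab1, a chain of the MHC class II molecule, measured 53.6, 20.3, 0 and 2.62 CPM and 221, 544 and 281 CPM (log2 fold change 4.18, SE 0.72, adjusted p = 0.000575). Cd74, the invariant chain that escorts it, measured 323, 38.3, 47.7 and 35.4 CPM and 659, 1500.0 and 982 CPM (log2 fold change 3.24, SE 0.52, adjusted p = 0.000255). Replicate 1 of day 0 held the most of both among the day 0 libraries, and several times more Cd74 than any other. Every day 14 library was still above it for both genes. Ciita, the factor that switches these genes on, had no count on day 0 and measured 8.0, 30.0 and 26.1 CPM on day 14 (adjusted p = 0.00786). Without replicate 2 of day 14, 4 of the 7 calls were kept. H2-DMa, H2-Eb1 and Cd209a were not called then (adjusted p of 0.0615, 0.164 and 0.0638). H2-DMa was also lost without replicate 3 of day 14 or replicate 2 of day 0, and H2-Eb1 without replicate 3 of day 14 or replicate 2, 3 or 4 of day 0.

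Of 16 complement genes 7 rose and 0 fell, with a median of 1.87, or 1.58 with genes at no day 0 count set to the floor. C1qa and C1qb, chains of C1q that macrophages make, rose to 149, 289 and 346 CPM and 173, 337 and 344 CPM from 110.2, 17.9, 23.8 and 23.6 CPM and 38.7, 3.59, 10.4 and 35.4 CPM. Their log2 fold changes were 2.59 and 3.70. C3ar1, the receptor for C3a, had 8 counts on day 0 and measured 27.2, 111 and 99.2 CPM on day 14 (adjusted p = 4.42e-05). C1s1, a protease of the C1 complex, rose from 65.5, 44.2, 61.1 and 60.4 CPM to 197, 148 and 146 CPM (adjusted p = 0.0117).

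Of 16 genes for handling lipid 6 rose and 0 fell (median 1.25). Trem2, a lipid receptor of macrophages, had 4 counts on day 0 and measured 41.6, 35.3 and 96.6 CPM on day 14 (adjusted p = 0.000635). Plin2, which coats lipid droplets, measured 7.44, 7.17, 8.94 and 17.1 CPM and 24, 72.4 and 49.6 CPM (log2 fold change 2.23, SE 0.49, adjusted p = 0.00583, and 0.075 without replicate 2 of day 14). Apoe, apolipoprotein E, measured 1194, 941, 893 and 932 CPM and 2132, 1987 and 4519.7 CPM. Replicate 3 was the highest there, and the call was lost without it (adjusted p = 0.0103, then 0.151).

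Neutrophil genes were scarce. Of 13 neutrophil genes 5 could be tested and 1 rose, Csf3r, the receptor for granulocyte colony-stimulating factor. It had no count on day 0 and 18 counts over the day 14 libraries, or 3.20, 15.9 and 9.13 CPM (adjusted p = 0.00595). S100a8, an abundant neutrophil protein, measured 4.80, 86.5 and 7.83 CPM on day 14, nearly all in replicate 2, and was not called (adjusted p = 0.12). Of 17 genes of T, NK and B cells 2 could be tested, of which edgeR and limma-voom called 0 and none had an unadjusted p under 0.05. DESeq2 called 1 member of this list. Their summed level was 1.49, 57.4, 37.3 and 11.8 CPM on day 0 and 35.2, 95.3 and 74.4 CPM on day 14, with overlap, and Ighm, an antibody heavy chain, measured 0, 7.17, 4.47 and 10.5 CPM and 8.0, 14.1 and 35.2 CPM.

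Interferon-stimulated genes rose as a group, and unevenly. Of 18 tested members 12 were higher and 0 lower, with a median of 3.24. Their summed level was 514, 499.7, 338 and 465 CPM on day 0, and on day 14 it was 902, 4073 and 982 CPM, so replicate 2 stood far above the other day 14 libraries. Replicate 2 held the highest day 14 value for all 18 members. Isg15, a ubiquitin-like protein induced by interferon, rose from 0, 5.98, 5.96 and 1.31 CPM to 51.2, 254 and 45.7 CPM (log2 fold change 5.03, SE 0.72, adjusted p = 7.10e-05). Isg15 kept its call without replicate 2, at 0.00228, and 10 of the 12 called members did not. Irf7, a transcription factor of the interferon response, measured 0, 8.37, 0 and 0 CPM and 19.2, 390.0 and 35.2 CPM, and its adjusted p went from 0.00118 to 0.0706 without that library.

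Promoter stretches are shown because a motif of interferon-induced genes was found in 5 of the 12 that rose. The interferon-stimulated response element was searched as GAAANNGAAA on both strands, overlapping matches included, in the 250 bases before each annotated transcript start on GRCm39. It was found for 722 of 21738 genes (3.32%), for 7 of the 18 listed interferon genes (38.9%) and for 5 of the 12 that rose (41.7%), and the other 2 of the 7 were not called. The stretches that hold it in these 5 genes follow, each read on the gene's own strand toward the start of transcription, with the matches in capitals.

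Isg15 (chr4:156285313-156285372, minus strand): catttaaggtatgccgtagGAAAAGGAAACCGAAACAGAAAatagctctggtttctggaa
Ifit1 (chr19:34618170-34618229, plus strand): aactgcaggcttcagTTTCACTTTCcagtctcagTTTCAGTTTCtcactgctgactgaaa
Ifit3 (chr19:34560763-34560826, plus strand): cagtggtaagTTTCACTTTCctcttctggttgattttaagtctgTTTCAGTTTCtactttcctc
Usp18 (chr6:121222769-121222828, plus strand): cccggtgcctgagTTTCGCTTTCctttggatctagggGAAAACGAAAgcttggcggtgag
Rsad2 (chr12:26506537-26506596, minus strand): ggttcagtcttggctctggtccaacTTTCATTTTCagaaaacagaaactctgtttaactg

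A run of TTTC, 2 bases and TTTC is the same motif on the other strand. Isg15 holds 3 overlapping matches between 50 and 29 bases before its start, Ifit1, Ifit3 and Usp18 hold 2 each, and Rsad2 holds 1. Ifit1 and Ifit3, which code for RNA-binding antiviral proteins, measured 59.2, 349 and 22.2 CPM and 72, 265 and 14.4 CPM. Usp18, which removes the Isg15 protein from its targets, measured 8.0, 182 and 24.8 CPM. Rsad2, the antiviral enzyme viperin, measured 4.80, 124 and 2.61 CPM. In each, replicate 2 was the highest by far, and without it the adjusted p was 0.596, 0.0753, 0.242 and 0.552. Ifit1 also lost its call without replicate 1, 2 or 4 of day 0. A match is a description of these letters and not evidence of binding.

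**Figure D4:**
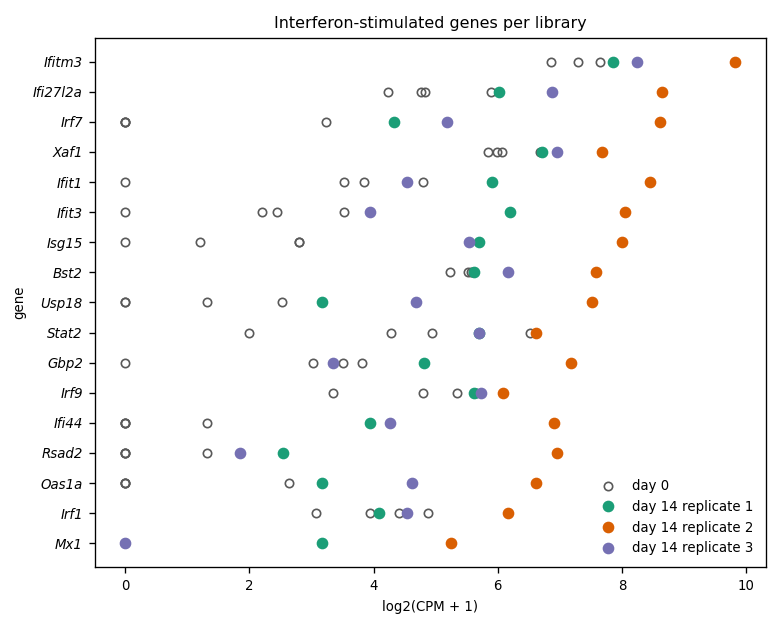
Level of 17 interferon-stimulated genes as log2(CPM + 1), with the 4 day 0 libraries as open circles and the 3 day 14 libraries as filled circles in 3 colours, genes ordered by their day 14 mean. The orange points of replicate 2 lie farthest to the right for all 17 genes, while replicates 1 and 3 lie nearer to day 0 and overlap with it for some genes.

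Chemokines, cytokines and their receptors showed the same library at the top. Of 26 tested 13 rose and 0 fell (median 2.69), and replicate 2 held the highest day 14 value for 23 of the 26. Cxcl12, which attracts white blood cells that carry Cxcr4, rose from 101, 65.7, 68.6 and 66.9 CPM to 378, 528 and 393 CPM (log2 fold change 2.52, SE 0.36, adjusted p = 8.68e-05). Cxcl16, a chemokine and scavenger receptor, rose from 19.4, 10.8, 26.8 and 24.9 CPM to 88, 152 and 115 CPM (log2 fold change 2.53, SE 0.37, adjusted p = 0.000102). Both were called whichever library was left out. By contrast Cxcl10, an interferon-induced chemokine, measured 17.6, 612 and 0 CPM on day 14, with no count in replicate 3, and Il1b measured 4.80, 146 and 17 CPM after no count on day 0. Without replicate 2 their adjusted p was 0.316 and 0.165, and 4 of the 13 members kept their call.

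Of 27 cell cycle genes 3 rose and 0 fell (median 1.28). Ccnd1, cyclin D1, which drives entry into the cycle, rose from 22.3, 29.9, 38.8 and 18.4 CPM to 118, 185 and 192 CPM (log2 fold change 2.59, SE 0.45, adjusted p = 0.000679). Stmn1, stathmin, which takes microtubules apart, had 8 counts on day 0 and measured 16, 44.1 and 39.1 CPM on day 14 (adjusted p = 0.00291). Ube2c, which acts late in mitosis, had 5 counts on day 0 and measured 4.80, 22.9 and 19.6 CPM (adjusted p = 0.0125, and up to 0.0988 without replicate 2 or 3 of day 14). Mki67, the proliferation marker Ki-67, measured 16.4, 3.59, 20.9 and 0 CPM and 11.2, 38.8 and 33.9 CPM, overlapped and was not called (adjusted p = 0.313).

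Of 15 endothelial genes 4 rose and 0 fell (median 0.66). Cldn5, a tight junction protein of endothelium, rose from 20.8, 14.3, 29.8 and 23.6 CPM to 118, 93.5 and 96.6 CPM (log2 fold change 2.21, SE 0.51, adjusted p = 0.00747). Kdr, the main VEGF receptor, had 1 count on day 0 and measured 17.6, 35.3 and 14.4 CPM on day 14, a ratio of 63.1 with a counting interval of 10.7 to 2550.1 (adjusted p = 0.00535). The other calls were Erg, lost without replicate 1 or 2 of day 14 or replicate 2 of day 0, at an adjusted p of up to 0.0857, and Robo4, lost without replicate 2 of day 14 or replicate 2 or 4 of day 0, at an adjusted p of up to 0.16. Without replicate 2 of day 14, 2 of the 4 calls were kept, Cldn5 and Kdr. Pecam1, the endothelial adhesion molecule CD31, measured 485, 624, 642 and 409 CPM and 568, 446 and 655 CPM (log2 fold change 0.04, SE 0.36).

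Of 16 genes of adventitial fibroblasts 2 rose and 3 fell (median -0.24). Cd248, endosialin, rose from 74.4, 76.5, 40.2 and 34.1 CPM to 173, 386 and 189 CPM (log2 fold change 2.14, SE 0.32, adjusted p = 0.000137), and Ly6a, which codes for Sca-1, from 140.0, 89.7, 146 and 114 CPM to 298, 734 and 412 CPM (log2 fold change 1.97, adjusted p = 0.000369). Clec3b, tetranectin, fell from 453, 165, 173 and 148 CPM to 57.6, 24.7 and 52.2 CPM (adjusted p = 0.00535, and 0.0573 without replicate 2 of day 14). Gsn, gelsolin, and Pcolce2 also fell (adjusted p = 0.0129 and 0.0448), and without replicate 2 these were 0.124 and 0.28. A further list held markers of SEM cells, which the study proposes to be modulated smooth muscle cells. Without lineage tracing it could not determine their origin. The list held Col1a1, Col1a2, Fn1 and Spp1, all described above and counted in other lists, besides Lgals3 and Cebpb. Spp1 is not among the SEM markers that the study's text names. Of the 6 genes 5 rose, with a median of 1.92. Lgals3, galectin-3, was among them, at 74.4, 64.6, 87.9 and 119 CPM and 136, 335 and 258 CPM (adjusted p = 0.0181, and up to 0.174 without replicate 2 or 3 of day 14 or replicate 1 or 2 of day 0), and Cebpb was the member not called.

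**Figure D5:**
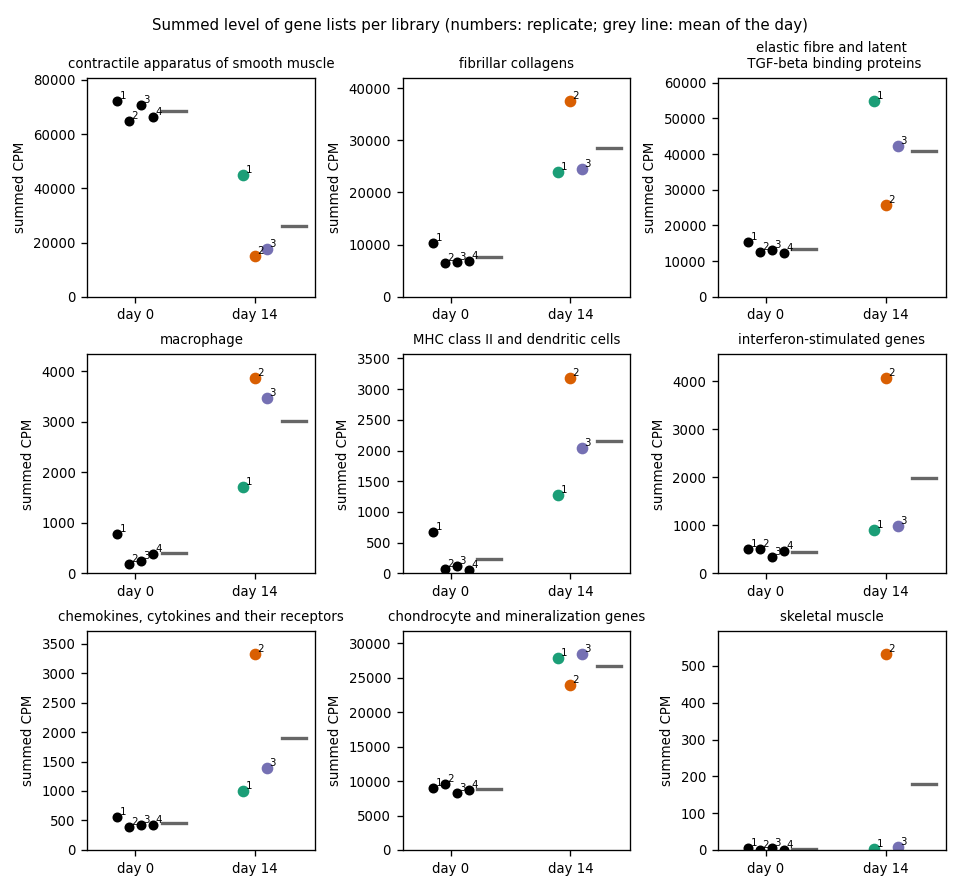
Summed CPM of 9 gene lists in each library, with the 4 day 0 libraries in black, the 3 day 14 libraries in colour, replicate numbers beside the points and a grey line at the mean of each day, on axes that start at 0. Day 14 replicate 2 has the highest sum for fibrillar collagens, macrophage, MHC class II, interferon, chemokine and skeletal muscle genes and the lowest for contractile, elastic fibre and mineralization genes, and the days overlap only in the skeletal muscle list. The mineralization sum is mostly Mgp, with 18998 of 24020 CPM in replicate 2. Of the 15 tested members of that list, replicate 2 was the highest day 14 library for 12 and the lowest for 2.

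Transcripts of tissues outside the vessel differed between the day 14 libraries. Of 10 genes of skeletal muscle fibres, 10 had counts in replicate 2 of day 14, which summed to 531 CPM. The sums in replicates 1 and 3 were 1.60 and 7.83 CPM, and those of day 0 were 0 to 5.96 CPM. Mylpf, a myosin light chain of fast muscle, had no count on day 0 and measured 0, 127 and 1.30 CPM on day 14 (adjusted p = 0.0446, and up to 0.873 without replicate 2 of day 14 or replicate 1, 2, 3 or 4 of day 0). The same library led the interferon, chemokine, macrophage and collagen values given above. The part of this muscle RNA in those results was not tested, and the counts of calls without that library are given with those lists.

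Of the other lists of cell types, 3 adipocyte genes, 7 erythrocyte and platelet genes and 1 mast cell gene were tested, and edgeR called 0 of them. At an unadjusted p under 0.05 there were 1, 2 and 1 of them, DESeq2 called 1 in each list, and limma-voom called 1 adipocyte gene. Plin4, a lipid droplet protein of adipocytes, measured 284, 323, 227 and 353 CPM and 181, 67.1 and 79.6 CPM (adjusted p = 0.0762), while Adipoq, Cidec, Lep and Retn, which define the cell, had no count in any of the 7 libraries. Hbb-bs, an adult beta globin, measured 26.8, 204, 233 and 57.7 CPM on day 0 and 19.2, 30.0 and 33.9 CPM on day 14 (adjusted p = 0.102), and Kit, the mast cell marker, 0, 0, 0 and 3.94 CPM and 4.80, 31.8 and 6.52 CPM (adjusted p = 0.0794). Of 4 Schwann cell genes 1 rose, Mbp, with 11 counts on day 14 and none on day 0 (adjusted p = 0.0448), a call lost without replicate 2 or 3 of day 14 or replicate 1, 2, 3 or 4 of day 0, at an adjusted p of up to 0.14. The Schwann cell gene Cdh19 had no count in these 7 libraries.

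Of 77 genes for cytoplasmic ribosomal proteins 0 were called by edgeR, with a median of 0.04 and 4 at an unadjusted p under 0.05, and DESeq2 and limma-voom called 2 each. Replicate 3 of day 14 was the highest of its day for 74 of the 77. Summed over the list the levels were 92539, 100265, 98387 and 89349.6 CPM on day 0 and 89971, 89362 and 118559 CPM on day 14. Rplp1, the most abundant of them, measured 2887, 2923, 3109 and 2262 CPM and 3182, 3051 and 4368 CPM. Of 77 subunits for oxidative phosphorylation 1 fell, Ndufs5 of complex I, from 309.7, 276, 337 and 257 CPM to 152, 125 and 177 CPM (log2 fold change -0.96, adjusted p = 0.0175, and up to 0.165 without replicate 1 or 2 of day 14). The list's median was -0.35, and limma-voom called 10 of its genes. Called or not, 24 of the 77 had all day 14 libraries below all day 0 libraries, against 6.79% of all genes tested. In 2 of the 77 all lay above, against 10.7%. Summed over the list the levels were 15661, 17387, 17680 and 16886.5 CPM on day 0 and 13827, 12766 and 13658 CPM on day 14, without overlap. Of 18 genes of glycolysis and hypoxia 1 rose, Ldha, lactate dehydrogenase, at 137, 117, 173 and 143 CPM and 242, 459 and 209 CPM. Of 24 genes for folding and secretion in the endoplasmic reticulum 1 rose, Sec61b, a subunit of the translocon, at 78.9, 159, 265 and 205 CPM and 346, 349 and 377 CPM. Their adjusted p was 0.0491 and 0.0457. The call of Ldha was lost without replicate 2 of day 14 or replicate 1, 2, 3 or 4 of day 0, at an adjusted p of up to 0.525. The call of Sec61b was lost without replicate 1, 2 or 3 of day 14 or replicate 1, 2 or 4 of day 0, at an adjusted p of up to 0.149. The medians of these lists were -0.25 and 0.22.

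Of 25 antioxidant and glutathione enzymes 2 fell, Gstm1 and Cbr2, and 1 rose, Gpx3, whose day 14 values were 11.2, 259 and 36.5 CPM with a median log2 fold change over the list of -0.33. Cbr2, a carbonyl reductase, measured 326, 271, 204 and 345 CPM and 178, 65.3 and 61.3 CPM (adjusted p = 0.0242, and up to 0.188 without replicate 2 or 3 of day 14 or replicate 1 or 4 of day 0), and the call of Gpx3 was lost without replicate 2 of day 14 or replicate 1, 2 or 3 of day 0, at an adjusted p of up to 0.885. Of 19 immediate early and Krüppel-like transcription factor genes 0 were called by edgeR or limma-voom and 2 by DESeq2, and 4 had an unadjusted p under 0.05 (median -0.27). Jund measured 176, 320.4, 206 and 207 CPM and 186, 139 and 88.7 CPM, and Klf4, linked to loss of the contractile state, measured 14.9, 70.5, 17.9 and 59.1 CPM and 41.6, 49.4 and 48.3 CPM, with adjusted p of 0.306 and 0.925.

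Exons of 13 of the named genes overlap exons of a protein-coding gene on the other strand in the annotation, and the sources used here do not say whether reads were counted by strand. These genes are Acta2, Tagln, Cnn1, Timm22, Smarcd3, Nr1d1, Tgm2, Atp2a2, Lamb1, Cxcl16, Ccnd1, Mylpf and Plin4, and reads from the partner gene cannot be told apart in them. Spp1 overlaps the annotated gene Gm42793 on its own strand.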

How the data were processed

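RNA of laser-captured carotid tissue was measured by MACE in 7 libraries of days 0 and 14. Per the labels and methods, the authors removed duplicate reads by molecular identifiers and quantified transcripts with Salmon 1.9.0 against the mouse genome mm39. They deposited estimated counts per gene, which entered the fits here without rounding. Annotation release and use of strand are not given in the sources used here. The deposited normalised table was not used, and 0 columns lacked a sample. Genes passing edgeR's expression filter by day (10312) were fitted in all 18 libraries with day as the only factor, by edgeR 4.0.16 (R 4.3.3) with TMM scaling and the quasi-likelihood test, with Benjamini-Hochberg adjustment and a threshold of 0.05. CPM used TMM-scaled totals. At 555284 to 869924 counts per library, 1 count is more than 1 CPM, and a floor of 3 counts over a group stood for genes without counts. Counting intervals are exact at 95%.

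The genes named by rule were a fixed set, the 8 most significant higher and the 8 most significant lower genes whose days did not overlap, and from each list the 2 called members with the smallest p, or the most abundant member where none was called, 82 in all. The values of 4 genes are not reported here. Other members were named after their values were seen, and the members and lists were chosen with earlier results of these data known. Alternatives were DESeq2 1.42.0, limma-voom with library weights (limma 3.58.1), other scalings and filters and a test against a fold of 2 (glmTreat). Thinned counts, a replicate block and each library left out were further alternatives. Among the libraries of days 0 and 14, the limma-voom weights ran from 0.373 in replicate 1 of day 0 to 1.74 in replicate 3 of day 14. The labels name no batch. Same-numbered libraries of days 0 and 14 did not deviate together (correlations of -0.0457, -0.0121 and 0.0123), and 0 mouse numbers were shared between those days, so the numbers were not taken as pairs. In simulated counts for this comparison over 10312 genes, edgeR recovered 71% of genes changed 4-fold and 9% of those changed 2-fold, with 5.88% of calls false. The false share was 15.3% for DESeq2 and 2.9% for limma-voom. The changed genes were drawn from the more abundant ones, and each gene had the same dispersion in every library. The real day 14 libraries differed widely, so these shares do not measure the error among the calls reported here. Promoters were read from GRCm39 at the canonical start in the GENCODE annotation.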

Additional observations from a re-analysis of the deposited data

Results flagged for a closer look

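In 9 of 96 groups of 4 day 0 values, 1 library lay apart from the others by Dixon's test, which chance alone gives in about 1 group in 20 for independent, normal values. These groups all came from the same 4 libraries, and some sums hold genes that were also tested singly. The 9 therefore cannot be set against that rate. In 8 of the 9 the library that lay apart was replicate 1. That library held 3953 CPM of Col1a1, 110.2 CPM of C1qa, 49.1 CPM of Tgfb1, 323 CPM of Cd74 and 101 CPM of Cxcl12, and summed levels of 10366 CPM for fibrillar collagens, 9020 CPM for SEM markers and 676 CPM for MHC class II genes. Replicate 3 stood apart with 4984 CPM for collagen processing genes.

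A direct test between days 14 and 7 by edgeR (Benjamini-Hochberg adjustment) called 12 of the genes examined. The log2 fold changes of day 14 over day 7 were 2.02 for Acta2 (adjusted p = 0.00411), 2.46 for Myh11 (0.0163), 2.24 for Cnn1 (0.00983), 1.61 for Mylk (0.00877), 3.39 for Rgs5 (0.00913) and 1.04 for Atp2a2 (0.0336). They were 1.82 for Smarcd3 (0.000894), 1.01 for Col3a1 (0.0137), 0.98 for Ltbp2 (0.0431), 1.41 for Cd248 (0.0203), -1.03 for Fbln2 (0.0297) and -5.12 for Hbb-bs (0.00253).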

How the results depend on the processing

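Of the alternatives to the 641 changed genes, testing against a fold of 2 gave 238 (233 higher, 5 lower), and leaving out 1 library gave 233 to 762 changed, 214 to 560 higher and 19 to 202 lower genes. The 19 came without replicate 2 of day 14, and 50 were lower without its replicate 3 and 96 without replicate 2 or 4 of day 0. Genes lower numbered 236 with no filter on low counts and 407 by limma-voom, and 248 were higher when only the libraries of days 0 and 14 were fitted. Between days 14 and 7 the count was 335 by DESeq2, 392 with no filter, 83 with those days only, 653 by limma-voom, 8 against a fold of 2 and 26 to 204 with 1 library left out. Between days 21 and 14 it was 13 by DESeq2, 23 with no filter and 9 by limma-voom. With a replicate block 514 genes changed, 384 higher and 130 lower, 489 of them among the 641. The distance of the day 14 libraries from day 0 was 1.16, 1.58 and 1.35 with a prior count of 0.5. Among the named genes, 1184 comparisons kept direction and side of the threshold, 79 lost a call, 27 gained one and 14 changed sign. The log2 fold change of Postn became 0.000741, 0.0105, 0.00142, 0.0380, 0.0546 and 0.242, of Pecam1 -0.000336, -0.0734 and -0.108, of Klf4 -0.0863 and -0.0590, and of Tgfb1 0.337, 0.506 and 0.108. With 1 library left out Postn ranged from -0.179 to 0.242, Pecam1 from -0.108 to 0.169, Klf4 from -0.0863 to 0.587 and Tgfb1 from -0.281 to 0.506. None of these 4 genes was called in the comparison as reported. The cause of these shifts was not tested, other than the libraries or genes each setting removes. At these depths a low day 0 level rests on a few counts.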
